A study of Mus musculus with 16 samples.

Results

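The 42 genes described here belong to the amino acid response and to tRNA charging in mouse B cells. They were chosen by symbol: every one is a named gene on the array, out of 22394 gene names there. By role they fall into 8 regulators, 6 enzymes of serine and one-carbon metabolism, 7 other enzymes of amino acid metabolism, 9 amino acid transporters and 12 cytosolic tRNA synthetases. The rule used no measured value, but the genes were chosen with earlier results of these data known. Of the 42, 41 passed the filter on dim probes and were tested beside 15069 genes in all. The exception was Slc7a11, the cystine and glutamate exchanger, whose probe was not well above background in either colour on any of the 16 arrays. The filter asked for signal on 3 arrays in either colour.

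Cells that run short of an amino acid, misfold proteins or carry double-stranded RNA can phosphorylate the translation factor eIF2α, which slows general translation and favours translation of the mRNA for the transcription factor ATF4. ATF4, with partners of the C/EBP family, binds composite elements near genes for amino acid synthesis, amino acid uptake and tRNA charging. The same genes are also drawn on by growing lymphocytes, in which MYC and mTORC1 raise amino acid use as the cells enlarge. Aminoacyl-tRNA synthetases join each amino acid to its tRNA and so feed the ribosome.

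RNA came from splenic B cells of AM14 mice, whose B cell receptor recognises IgG. Genotypes were WT, Tlr7-/- (here Tlr7KO), Tlr9-/- (Tlr9KO) and Tlr7/9-/- (DKO), and all carried the AM14 receptor. Each was sampled before stimulation (0 h) and at 6, 24 and 42 h with PL2-3, an antibody against chromatin. Each of these 16 combinations was read on 1 array, with the sample in Cy5 and a pool of unstimulated B cell RNA of all 4 genotypes in Cy3. The sources used here do not give the age, sex or number of mice, or any pooling of RNA. The series asked how TLR9 in such B cells bears on responses that run through the B cell receptor and TLR7.

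All values are log2 of sample over pool, so 0 is the level of the pool and 1 is a doubling. There were no replicates of a genotype at a time. The time comparisons take WT, Tlr7KO and Tlr9KO (the TLR-bearing genotypes) as replicates of each other. Their p-values set a change over time against how unevenly it ran across these genotypes. No array held cells kept in culture without PL2-3, so its effect and that of culture itself cannot be told apart. WT and Tlr7KO were on 1 slide and Tlr9KO and DKO on the other, so the presence of TLR9 and the slide cannot be told apart. Only Tlr7KO against WT and DKO against Tlr9KO lie within a slide.

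Between 37.4% and 62.7% of spots were well above background in Cy5 on an array, and no spot was saturated. All 8 B cell markers were well above background on all 16 arrays. Tlr7 read 0.91 to 1.48 in WT and 0.32 to 1.71 in Tlr9KO, and -0.73 to -0.02 in Tlr7KO and -0.58 to 0.41 in DKO, so the ranges of Tlr9KO and DKO overlapped. Tlr9 read -0.84 to -0.05 in WT and -1.14 to 0.04 in Tlr9KO, so its probe did not separate the genotypes, and the sources used here do not say whether it lies in the deleted part. Markers of other cells were present at 0 h and later: 7 of 8 T cell, 8 of 8 myeloid, 5 of 5 NK and 5 of 5 erythroid markers were well above background on at least 3 arrays, while Tcra was on none.

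The promoters are shown first because the composite element of ATF4 and C/EBP factors can be read in them. RefSeq windows of 300 bases (250 before the gene start and 50 after it, build GRCm38.p6) were matched by symbol for 34 of the 42 genes, as 41 windows. The C/EBP-ATF response element TGATGNAA, on either strand, was found in 12 of these windows, or 29.3%, against 3.97% of all 32851 windows. The matches lay in 3 regulators, 2 other enzymes, 2 transporters and 5 tRNA synthetases, and in none of the 6 serine and one-carbon enzymes. The E-box CACGTG, which reads the same on both strands and is bound by MYC among others, was found in 6 windows, or 14.6%, against 7.15% of all windows. Aars, Iars, Nupr1 and Tars, 4 genes, had both motifs, and no match of the 2 motifs overlapped. A match is a run of letters and not a shown binding site. The list was drawn up as genes of this response, and rises of genes with and without a match were not compared. Of the 12 genes with a TGATGNAA match, Nupr1 was not called at 6 h and Slc7a11 was not tested. The 6 promoters below belong to the genes with such a match that rose most at 6 h. Each runs 5′ to 3′ along the gene, from 250 bases before the gene start to 30 after it, with TGATGNAA matches of either strand in capitals.
Asns, chr6:7693180-7693459, minus strand: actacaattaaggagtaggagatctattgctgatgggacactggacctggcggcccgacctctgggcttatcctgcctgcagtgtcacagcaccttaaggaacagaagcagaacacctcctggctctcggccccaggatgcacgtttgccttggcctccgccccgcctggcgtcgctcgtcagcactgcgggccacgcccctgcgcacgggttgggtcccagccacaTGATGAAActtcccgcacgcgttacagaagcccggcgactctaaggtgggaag
Trib3, chr2:152344031-152344310, minus strand: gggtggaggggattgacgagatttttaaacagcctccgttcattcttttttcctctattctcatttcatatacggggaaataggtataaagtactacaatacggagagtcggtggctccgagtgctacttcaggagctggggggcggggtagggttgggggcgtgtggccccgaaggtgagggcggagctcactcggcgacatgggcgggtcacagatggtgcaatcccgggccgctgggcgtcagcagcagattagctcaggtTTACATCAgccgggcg
Chac1, chr2:119350992-119351271, plus strand: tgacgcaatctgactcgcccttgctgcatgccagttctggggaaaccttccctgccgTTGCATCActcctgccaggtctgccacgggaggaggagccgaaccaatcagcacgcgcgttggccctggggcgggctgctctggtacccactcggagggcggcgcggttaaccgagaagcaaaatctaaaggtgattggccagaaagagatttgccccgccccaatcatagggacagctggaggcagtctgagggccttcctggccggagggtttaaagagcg
Pycr1, chr11:120643719-120643998, minus strand: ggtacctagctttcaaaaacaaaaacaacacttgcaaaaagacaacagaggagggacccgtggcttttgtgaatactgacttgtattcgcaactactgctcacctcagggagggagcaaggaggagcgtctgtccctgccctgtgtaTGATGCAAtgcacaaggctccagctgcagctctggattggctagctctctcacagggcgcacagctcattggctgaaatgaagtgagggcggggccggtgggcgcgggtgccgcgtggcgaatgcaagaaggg
Iars, chr13:49681880-49682159, plus strand: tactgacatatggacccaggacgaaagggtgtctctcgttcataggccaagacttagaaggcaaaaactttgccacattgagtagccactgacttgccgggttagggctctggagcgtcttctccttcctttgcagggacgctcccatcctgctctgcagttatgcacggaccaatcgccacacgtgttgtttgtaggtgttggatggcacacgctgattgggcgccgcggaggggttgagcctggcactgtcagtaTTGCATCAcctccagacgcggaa
Aars, chr8:111033592-111033871, plus strand: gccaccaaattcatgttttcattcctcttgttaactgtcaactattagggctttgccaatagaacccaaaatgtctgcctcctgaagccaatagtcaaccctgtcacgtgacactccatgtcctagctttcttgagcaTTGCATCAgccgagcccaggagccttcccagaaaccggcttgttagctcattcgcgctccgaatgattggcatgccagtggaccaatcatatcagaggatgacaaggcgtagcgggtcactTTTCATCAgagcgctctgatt
Counted from the gene start, the match began at position -23 in Asns, -193 in Chac1 and -103 in Pycr1. In Trib3 and Iars it lay just past the start, at positions 15 and 8. Aars held 2 matches.

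**Figure D1:**
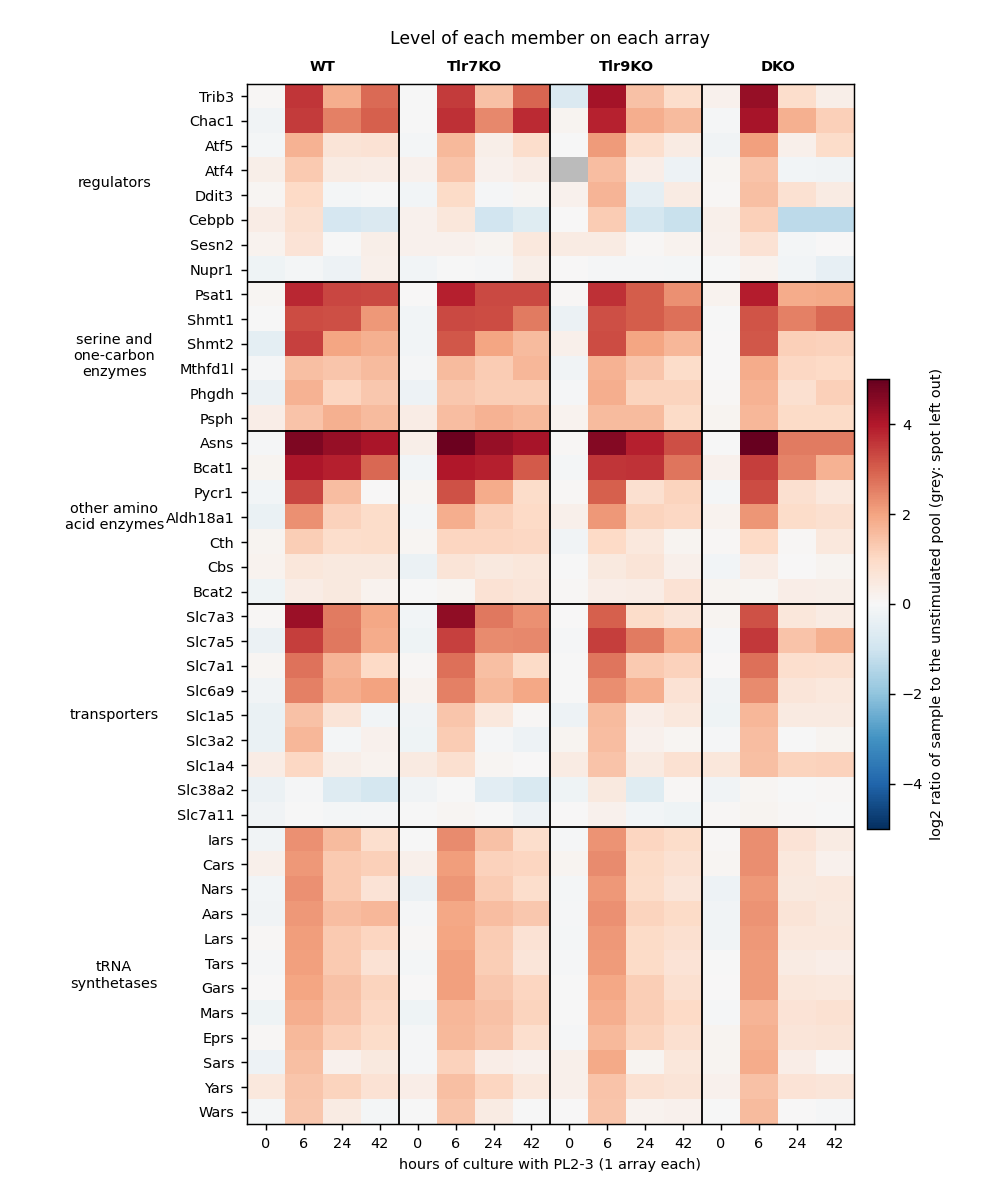
Log2 ratio of sample to the unstimulated pool for the 42 genes (rows, by role) on the 16 arrays (columns, 4 times for each genotype). The grey cell is an Atf4 spot left out for an outlier flag. The 6 h column is the reddest for most rows in all 4 genotypes, and the 24 h and 42 h columns of DKO are paler than the others for Asns and Psat1. Slc7a11 was not well above background on any array.

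At 6 h most of these genes stood well above their own 0 h level. Of the 41 tested, 37 rose in the TLR-bearing genotypes and none fell, and their median change was 1.91, against a median of -0.01 over all genes tested. Over all genes, 25.9% rose and 27.1% fell in the same fit (limma, Benjamini-Hochberg adjusted p under 0.05). The 4 that did not pass were Nupr1, Sesn2, Bcat2 and Slc38a2. With all 4 genotypes counted, 38 of the 40 genes measured on every array were above their own 0 h array in each genotype (95%), against 32.2% of all genes. The highest mean level over time was at 6 h for 38 of 41 genes in the TLR-bearing genotypes and for 40 of 41 in DKO. The share of all genes highest at 6 h was not computed.

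Among the regulators, 6 of 8 rose at 6 h. Trib3, a pseudokinase that binds ATF4, read 0.06, 0.00 and -0.74 at 0 h in WT, Tlr7KO and Tlr9KO, and 3.58, 3.48 and 4.17 at 6 h. Its rise was 3.97 ± 0.43 (SE, 3 arrays a time; limma adjusted p = 4.34e-05), and the times did not overlap. Chac1, an enzyme that breaks down glutathione, was not well above background at 0 h in any of the 3 genotypes and read 3.50, 3.66 and 3.86 at 6 h. Its fitted rise was 3.70 ± 0.39 (adjusted p = 3.80e-05). With the 0 h signal near background, the size of such a rise depends on the processing. Over the 11 settings run the Chac1 rise was 3.68 to 6.76 (the highest on processed signals), and it passed in all 11.

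Atf4 itself moved less. It read 0.28 and 0.22 in WT and Tlr7KO at 0 h and 1.29, 1.43 and 1.53 in the 3 genotypes at 6 h, a rise of 1.21 ± 0.18 (limma adjusted p = 0.000454). The Tlr9KO spot at 0 h was left out for an outlier flag, so that fit rests on 11 arrays. ATF4 is set largely by translation of its mRNA, which arrays do not read. Atf5, a related factor, rose by 1.89 ± 0.18, and Ddit3, which encodes the stress factor CHOP, rose by 1.15 ± 0.19. Cebpb, a partner of ATF4, rose by 0.69 ± 0.19 (adjusted p = 0.0137), but without WT that rise no longer passed (adjusted p = 0.070). Sesn2, a leucine sensor that holds back mTORC1, changed by 0.17 ± 0.14 and Nupr1, a small stress protein of chromatin, by 0.03 ± 0.12. Neither passed, and Nupr1 was well above background on only 7 of 16 arrays.

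All 6 serine and one-carbon enzymes rose. Psat1, the aminotransferase of serine synthesis, read 0.11, 0.02 and 0.07 at 0 h in WT, Tlr7KO and Tlr9KO and 3.78, 3.87 and 3.63 at 6 h. Its rise was 3.70 ± 0.19 (limma adjusted p = 5.40e-07). The mitochondrial enzyme Shmt2, which turns serine into glycine and a one-carbon unit, rose by 3.38 ± 0.16, and the cytosolic Shmt1 by 3.41 ± 0.15. The first and last enzymes of serine synthesis rose less, Phgdh by 1.85 ± 0.14 and Psph by 1.21 ± 0.14. Mthfd1l, a mitochondrial folate enzyme, rose by 1.70 ± 0.17.

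Of the 7 other enzymes, 6 rose. Asns, asparagine synthetase, read -0.07, 0.30 and 0.07 at 0 h and 4.68, 4.89 and 4.60 at 6 h in WT, Tlr7KO and Tlr9KO, and 4.98 at 6 h in DKO. Its rise of 4.63 ± 0.17 (limma adjusted p = 1.28e-07) was seen in all 3 genotypes. Bcat1, the cytosolic aminotransferase of branched-chain amino acids, was not well above background at 0 h and had a fitted rise of 3.89 ± 0.11 at 6 h (adjusted p = 3.39e-08), or 3.58 to 5.36 over the settings. Pycr1, the last enzyme of proline synthesis, was likewise not well above background at 0 h, with a fitted rise of 3.19 ± 0.30 (adjusted p = 1.61e-05) and 1.80 to 4.72 over the settings. Aldh18a1, which starts proline synthesis, rose by 2.15 ± 0.15, and the cysteine-making enzymes Cth and Cbs by 1.08 ± 0.14 and 0.61 ± 0.13. Without Tlr7KO the Cbs rise no longer passed (adjusted p = 0.058). The mitochondrial Bcat2 changed by 0.32 ± 0.15 (adjusted p = 0.113).

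Of the 8 transporters tested, 7 rose. Slc7a5, the light chain of the large neutral amino acid transporter, read -0.28, -0.22 and -0.05 at 0 h and 3.46, 3.43 and 3.44 at 6 h in the 3 genotypes, a rise of 3.63 ± 0.16 (limma adjusted p = 2.78e-07). Its heavy chain partner Slc3a2 rose by 1.63 ± 0.13. Slc7a3, a carrier of cationic amino acids, was not well above background at 0 h and read 4.27, 4.45 and 2.98 at 6 h. Its fitted rise was 3.92 ± 0.32 (adjusted p = 7.43e-06), or 3.58 to 6.50 over the settings. Its relative Slc7a1 rose by 2.66 ± 0.11 and the glycine carrier Slc6a9 by 2.46 ± 0.26. The neutral amino acid carriers Slc1a5 and Slc1a4 rose by 1.74 ± 0.16 and 0.68 ± 0.14. Slc38a2, a carrier of small neutral amino acids, changed by 0.36 ± 0.18 (adjusted p = 0.114).

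All 12 tRNA synthetases rose, by 1.07 to 2.39. Nars, which charges asparagine tRNA, read -0.14, -0.29 and -0.09 at 0 h and 2.28, 2.21 and 2.15 at 6 h, a rise of 2.39 ± 0.12 (limma adjusted p = 5.45e-07). Yars, for tyrosine, had the smallest rise of the 12, 1.07 ± 0.11 (adjusted p = 2.72e-05). Iars, Aars, Tars, Lars, Cars, Gars, Mars, Eprs, Sars and Wars lay between. They serve isoleucine, alanine, threonine, leucine, cysteine, glycine, methionine, glutamate with proline, serine and tryptophan, in this order. The pool was well above background for the Yars probe on only 2 of 16 arrays. Among the genes of other roles, that count was 2 for Slc7a3, 3 for Chac1 and Nupr1, 4 for Pycr1 and 8 for Bcat1. On the other arrays the ratios of Yars and these genes, here and below, are to a pool near background.

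**Figure D2:**
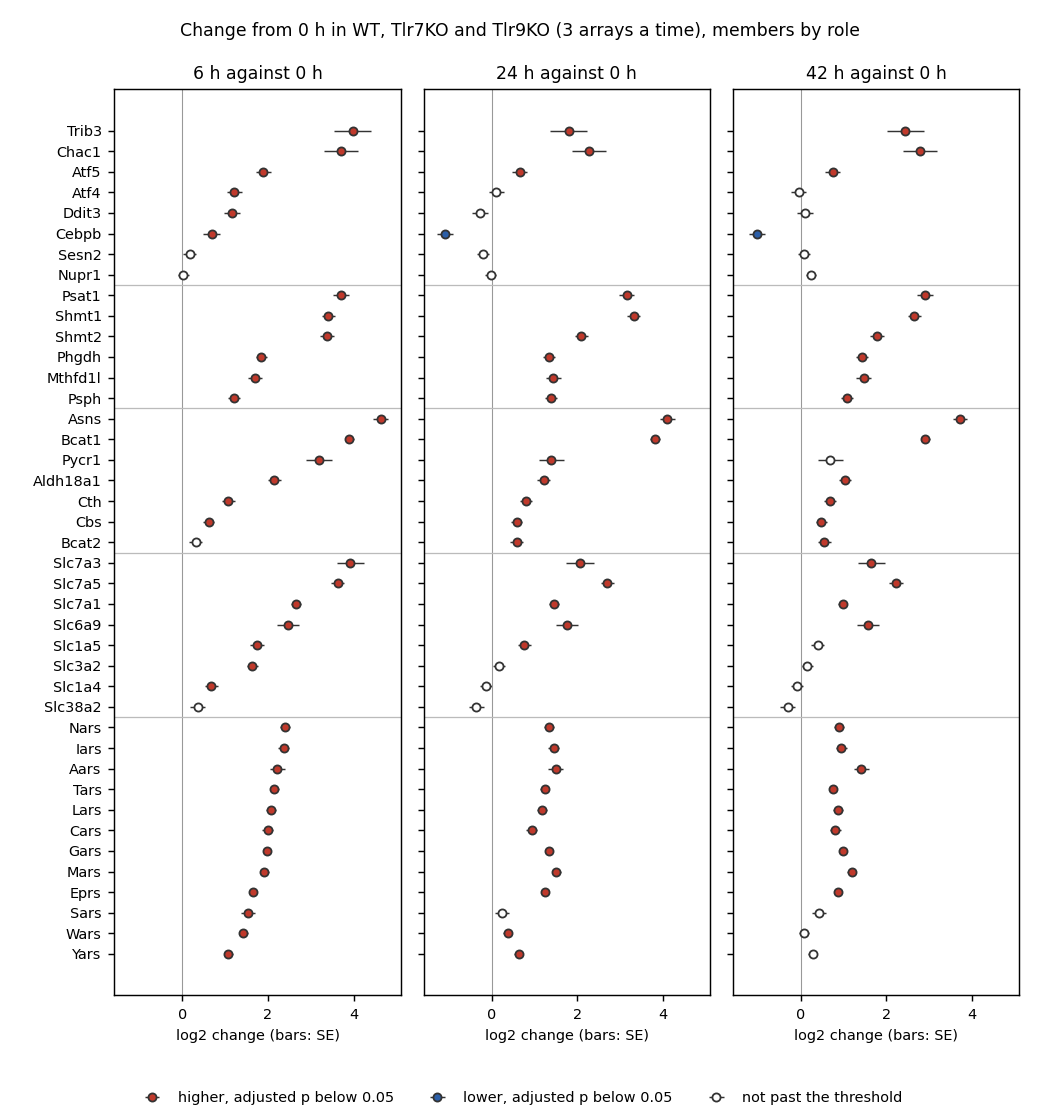
Log2 change from 0 h in WT, Tlr7KO and Tlr9KO at 6, 24 and 42 h (panels) for the 41 genes tested, by role. Points are limma estimates from 3 arrays a time, bars are SE, and open points did not pass the threshold. The tRNA synthetases cluster between 1.07 and 2.39 at 6 h, while the regulators run from 0.03 to 3.97.

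Array scaling set the size of these changes more than their direction. When each array was only centred on its median, the median change at 6 h was 0.26 over all genes and 2.75 over the 41 genes. The share of all calls that were higher went from 48.9% to 74.2% at 6 h, and 40 of the 41 genes rose. That share went from 47.6% to 78.4% at 24 h and from 44.97% to 57.6% at 42 h against 0 h, where 35 and 30 of the 41 were higher. None of the 37 rises turned direction under any setting tried.

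Markers moved at the same times. The median of the 8 B cell markers lay between -0.09 and 0.20 on the 4 arrays at 0 h and between -2.71 and -2.30 at 6 h. The median of the 8 myeloid markers went from between -0.43 and 0.42 to between -1.99 and -1.50, that of the 5 NK markers from between -0.31 and 0.06 to between -1.15 and -0.99, and that of the 5 erythroid markers from between -1.07 and 0.55 to between -2.42 and -1.24. The T cell median went from between -0.03 and 0.08 to between -0.53 and -0.39, and the plasma cell median from between -0.41 and 0.05 to between -0.96 and -0.59. Fewer cells of a type and less RNA per cell cannot be told apart here, and the part of these shifts in the changes above was not tested.

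At 24 h the enzymes, transporters and synthetases were mostly still raised, while 3 of 8 regulators were. Of 41 genes, 32 were higher and 1 was lower than at 0 h in the TLR-bearing genotypes, with a median of 1.25, against 26.0% higher and 28.5% lower over all genes. All 6 serine and one-carbon enzymes, all 7 other enzymes, 11 of 12 synthetases and 5 of 8 transporters were higher, but only 3 of 8 regulators (Atf5, Trib3 and Chac1), of which Atf5 and Trib3 no longer passed without WT. Of the 37 genes that rose at 6 h, 31 were higher than 0 h at 24 h as well, and 27 were higher at all 3 times.

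Asns read 4.35, 4.36 and 3.90 in WT, Tlr7KO and Tlr9KO at 24 h, or 4.10 ± 0.17 above 0 h (limma adjusted p = 4.39e-07). Atf4 read 0.40, 0.21 and 0.34 and was 0.11 ± 0.18 above 0 h (adjusted p = 0.626), and Ddit3 read -0.11, -0.06 and -0.45 (adjusted p = 0.260). Cebpb read -0.84, -0.97 and -0.86, a fall of 1.09 ± 0.19 below 0 h (adjusted p = 0.00113), the 1 gene of the 41 called lower. Sars (0.25 ± 0.16), Slc3a2 (0.17 ± 0.13), Slc1a4 (-0.12 ± 0.14) and Slc38a2 (-0.36 ± 0.18) did not pass. Bcat2, which had not passed at 6 h, was 0.59 ± 0.15 higher at 24 h, and it no longer passed without WT or without Tlr7KO.

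Set against 6 h directly, 31 of 41 genes had fallen by 24 h and none had risen, with a median of -0.89. Over all genes 20.5% fell and 17.5% rose. Falls were largest for Trib3 (-2.17 ± 0.43), Slc7a3 (-1.85 ± 0.32), Pycr1 (-1.79 ± 0.30) and Cebpb (-1.77 ± 0.19). All 12 synthetases fell, with changes from -1.28 to -0.39, and so did 6 of 8 regulators. Of the synthetases, Aars, Eprs, Mars and Yars no longer passed without WT or without Tlr7KO, and Aars, Gars and Mars no longer passed with median centring. With median centring 25 fell, and the share of all calls that were higher went from 46.1% to 56.7%. Shmt1 (-0.09 ± 0.15), Bcat1 (-0.08 ± 0.11), Psph (0.18 ± 0.14), Cbs, Cth, Mthfd1l and Slc6a9 were among the 10 that did not pass. Asns fell by 0.52 ± 0.17 (limma adjusted p = 0.0345), which no longer passed without WT or without Tlr7KO.

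At 42 h, 28 of 41 genes were above 0 h and 1, Cebpb again, was below (adjusted p = 0.0508 without WT), with a median of 0.87. Over all genes 19.5% were higher and 23.8% lower. Asns read 4.07, 4.14 and 3.22, or 3.71 ± 0.17 above 0 h. Psat1 was 2.90 ± 0.19 and Bcat1 2.91 ± 0.11 above 0 h, Slc7a5 was 2.22 ± 0.16 above it, and the synthetases that passed, 9 of 12, were 0.75 to 1.41 above it. Wars, Sars and Yars did not pass. Chac1 was 2.78 ± 0.39 above 0 h at 42 h, and at 24 h it had been 2.27 ± 0.39 above. Trib3 read 2.83 and 2.92 in WT and Tlr7KO at 42 h and 0.90 in Tlr9KO, so here the genotypes lay far apart.

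Between 24 h and 42 h, 7 of 41 genes fell and none rose, against 5.08% of all genes lower and 2.83% higher. They were Bcat1 (-0.91 ± 0.11), Shmt1 (-0.68 ± 0.15), Iars, Tars, Slc7a1, Eprs and Gars. None of the 41 passed without WT, without Tlr7KO, with DKO added or on processed signals, and 18 passed without Tlr9KO, 15 of them lower. With median centring 21 fell, where the median change over all genes was -0.32 and the share of all calls that were higher went from 35.7% to 1.0%.

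**Figure D3:**
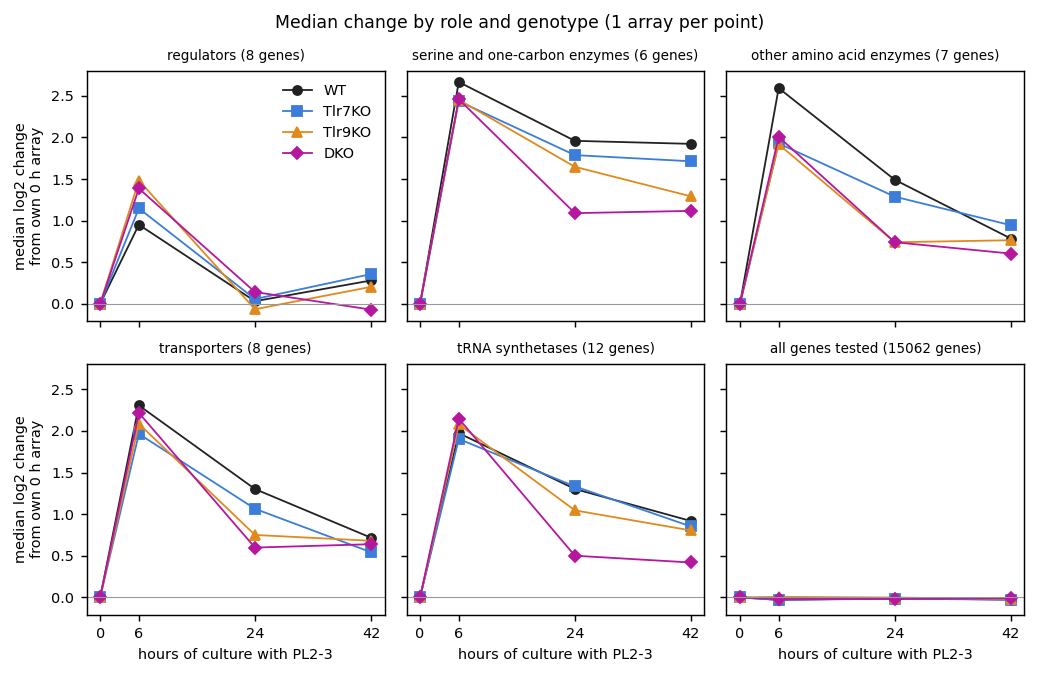
Median log2 change from the genotype's own 0 h array (y axis) against hours with PL2-3 (x axis), for each role and, in the last panel, all genes tested. Each point is the median over genes of 1 pair of arrays, without Atf4 in Tlr9KO. The 4 genotypes lie together at 6 h for the synthetases (1.90 to 2.15), and DKO lies lowest at 24 h (0.50 against 1.05 to 1.33).

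The double knockout lay with the other genotypes at 6 h and below them at 24 h. Its median change over the 41 genes from its own 0 h array was 2.01 at 6 h, compared with 1.99 in WT, 1.85 in Tlr7KO and 1.94 in Tlr9KO. At 24 h it was 0.64 in DKO, compared with 1.39, 1.33 and 1.01. At 42 h it was 0.60, compared with 0.90, 0.90 and 0.77. At least 2-fold above their own 0 h array (log2 of 1) were 33 genes in DKO at 6 h and 7 at 24 h, whereas WT had 32 and 25. None of the 12 synthetases was at least 2-fold above at 24 h in DKO, compared with 9 in WT, 8 in Tlr7KO and 7 in Tlr9KO. Over all genes the share at least 2-fold above at 24 h was 4.38% in DKO, 11% in WT, 10.8% in Tlr7KO and 12% in Tlr9KO. DKO was the lowest of the 4 arrays at 24 h for 33 of 41 genes (80.5%), against 36.1% of all genes.

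Tested as levels at 24 h, 11 of 41 genes were lower in DKO than in the TLR-bearing genotypes and none was higher, with a median of -0.62. Over all genes 3.41% were lower and 2.50% higher. They were 6 synthetases (Gars, Tars, Mars, Iars, Nars and Eprs), Asns and Bcat1 among the other enzymes, Psat1, and the transporters Slc7a5 and Slc7a1. DKO was the lowest of the 4 arrays for all 11, which the choice of these genes on the same arrays favours. Tlr9KO was lower than both WT and Tlr7KO for 10 of them.

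Asns read 4.35 in WT, 4.36 in Tlr7KO, 3.90 in Tlr9KO and 2.58 in DKO at 24 h. DKO was thus the low array, with a difference of -1.62 ± 0.32 (SE, limma adjusted p = 0.0199). Psat1 read 3.33, 3.29, 3.02 and 1.85, a difference of -1.37 ± 0.32 (adjusted p = 0.0337). Slc7a5 read 2.62, 2.35, 2.60 and 1.42, a difference of -1.11 ± 0.21 (adjusted p = 0.0170). Bcat1 read 3.87, 3.87, 3.63 and 2.50, a difference of -1.29 ± 0.21 (adjusted p = 0.0115) that was -0.47 on the scanner's processed signals (adjusted p = 0.717). The glycine synthetase Gars read 1.47, 1.36, 1.25 and 0.57, a difference of -0.79 ± 0.14 (adjusted p = 0.0148). For the other 5 synthetases the differences ran from -0.75 to -0.64. With median centring the median difference over all genes was -0.35 and over the 41 genes -1.23, and the share of all calls that were higher went from 42.3% to 3.8%. In every comparison of DKO with the TLR-bearing genotypes, leaving out Tlr9KO left DKO alone on slide 2. The spread then came only from WT against Tlr7KO within slide 1, and DKO and slide could not be told apart. A larger count without Tlr9KO is therefore no sign of a larger difference. None of the 41 genes passed without WT, without Tlr7KO, with median centring or on processed signals, and 27 passed without Tlr9KO, 24 of them lower.

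Within slide 2, DKO was below Tlr9KO at 24 h for 35 of the 41 genes (85.4%), against 48.8% of all genes. It was below for all 11 called genes, with differences from -1.32 to -0.38. Those 11 were called from these same arrays, so that is no separate check. Tlr7KO was below WT, within slide 1, for 23 of 41 (56.1%), against 52.1% of all genes. With slide as a term in the fit, 8 genes passed. When the response itself was tested, each genotype's 24 h array less its 0 h array, none of the 41 genes passed (0.0768% of all genes did). An unadjusted p below 0.05 was found for 15 of the 41, 14 of them lower in DKO, and for 2457 of all 15627 genes. The nearest was Bcat1 (-1.52 ± 0.29, limma adjusted p = 0.0744). With slide as a term 2 passed, and without Tlr9KO 21.

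Ddit3 and Slc1a4 lay the other way without passing the threshold. Ddit3 read 0.75 in DKO at 24 h and -0.11, -0.06 and -0.45 in WT, Tlr7KO and Tlr9KO, a difference of 0.96 ± 0.28 that did not pass (limma adjusted p = 0.0624). Slc1a4 read 1.1 in DKO and 0.30, 0.10 and 0.45 in the others, a difference of 0.82 ± 0.28 (adjusted p = 0.0979). In both, the DKO array was the high one. B cell markers also stood apart on the DKO array at 24 h, with a median of -1.49 compared with -2.66 to -2.34, and 3 of 8 passed as higher. The part of that in the lower levels above was not tested.

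**Figure D4:**
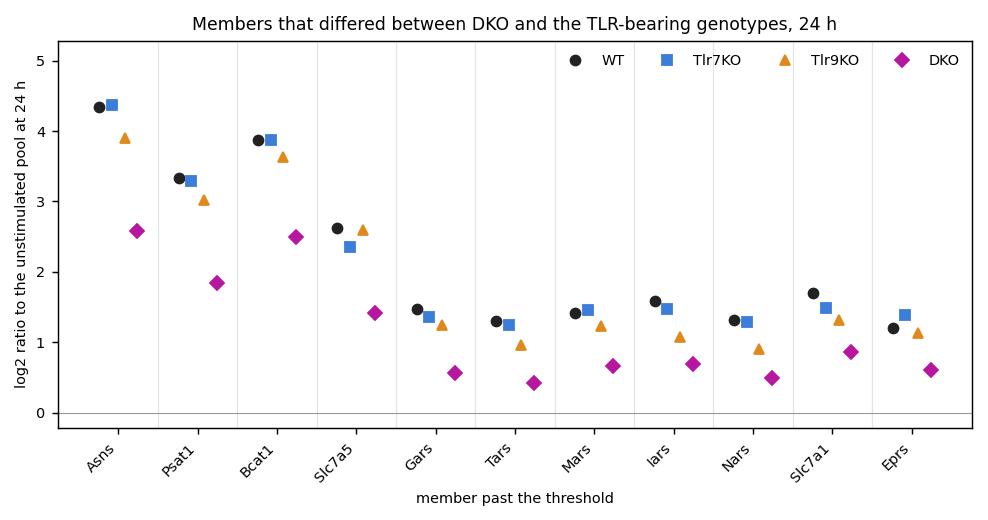
Log2 ratio to the unstimulated pool at 24 h (y axis) for the 11 genes lower in DKO (x axis), 1 point per array. The DKO point is the lowest for each gene, for example 2.58 for Asns with the others at 3.90 to 4.36.

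At 6 h none of the 41 genes differed between DKO and the TLR-bearing genotypes by limma, nor did any have an unadjusted p below 0.05, and 0.128% of all genes were called. The response from 0 h to 6 h gave the same counts of 0, with 0.0256% of all genes called. At 42 h none passed either, against 0.192% of all genes. An unadjusted p below 0.05 was found for 14 of the 41, 13 of them lower in DKO, and for 1695 of all 15644 genes. For the response from 0 h to 42 h none passed, against 0.0192% of all genes. There 9 of the 41 had an unadjusted p below 0.05, as did 867 of all 15627 genes. Asns at 42 h read 2.60 in DKO, compared with 4.07, 4.14 and 3.22. The fit without Tlr9KO again left DKO alone on slide 2. Without Tlr9KO 20 genes passed at 42 h, and without WT or Tlr7KO none did.

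Loss of Tlr7 alone went with no called difference. Over the 3 stimulated times none of the 41 genes passed between Tlr7KO and WT (0.00652% of all genes did), and the median difference was 0.00. An unadjusted p below 0.05 was found for 1 of the 41 and for 220 of all 15335 genes. On single arrays, with no test, none of the 41 was lower in Tlr7KO than in WT by 0.5 or more at any time. Over all genes that share was also small, at 0.823%, 0.75%, 0.458% and 2.91% at 0, 6, 24 and 42 h. At 42 h 3 of the 41 were higher by that much: Pycr1 by 0.91, Chac1 by 0.75 and Slc7a5 by 0.56. The share of all genes higher by that much was not computed. Between DKO and Tlr9KO over the stimulated times none passed, against 0.0522% of all genes, with a median of -0.16. Here 4 of the 41 had an unadjusted p below 0.05, as did 887 of all 15335 genes. That comparison pools 6 h, where the single-array median difference was 0.02, with 24 h, where it was -0.43.

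Of the differences between Tlr9KO and WT with Tlr7KO, most calls came at 42 h. Whether the times differ was not tested. In this fit Tlr9KO had 1 array a time, and the spread came only from WT against Tlr7KO within slide 1. The SE and p-values therefore hold no spread between slides or among Tlr9KO arrays. At 6 h 3 of 41 genes passed, against 4.99% of all genes: Ddit3 (0.70) and Slc38a2 (0.51) were higher and Slc7a3 (-1.38) lower. With median centring neither of the higher calls passed, and the share of all calls that were higher went from 68.2% to 18.8%. At 24 h only Slc7a3 passed, against 4.30% of all genes. With median centring 34 were lower there, at a median difference over all genes of -0.58, and the share of all calls that were higher went from 59.9% to 4.5%. At 42 h 12 were lower and 3 higher, against 12.3% and 9.26% of all genes. The pool was well above background for the Slc7a3 probe on only 2 arrays in all, so its ratios are mostly to a pool near background. Slc7a3 was low throughout, at 2.98, 0.92 and 0.64 in Tlr9KO at 6, 24 and 42 h. That compared with 4.27, 2.60 and 1.93 in WT and 4.45, 2.62 and 2.30 in Tlr7KO. On processed signals its 6 h difference was 0.06 in place of -1.38, and none of its 3 differences passed.

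At 42 h Trib3 read 2.83 in WT, 2.92 in Tlr7KO, 0.90 in Tlr9KO and 0.30 in DKO. The Tlr9KO array was the low one against WT and Tlr7KO, with a difference of -1.98 ± 0.16 (SE, limma adjusted p = 7.69e-05). Chac1 read 2.98, 3.73, 1.57 and 1.20, a difference in Tlr9KO of -1.78 ± 0.26. The pool was well above background for the Chac1 probe on only 3 arrays in all, so these ratios are mostly to a pool near background. The difference was -1.26 ± 0.15 for Slc6a9, -1.01 ± 0.10 for Psat1, -0.88 ± 0.16 for Asns and -0.61 ± 0.12 for Atf4. Cth, Mthfd1l, Psph, Aars and Cars were also lower, of which Aars and Cars passed in 3 of the 6 settings run. The carriers Slc38a2 (0.86 ± 0.11), Slc1a4 (0.68 ± 0.14) and Slc1a5 (0.57 ± 0.13) were higher. With median centring, under which the median difference over all genes was -0.20, those 3 no longer passed and 18 genes were lower. The share of all calls that were higher went from 42.9% to 12.6%. Of the 8 B cell markers 3 were higher and 1 lower in Tlr9KO at 42 h, and of the 5 erythroid markers 2 were higher, and their part in these differences was not tested. DKO, on the same slide, lay outside WT and Tlr7KO on the same side for all 12 lower and all 3 higher genes, and it was beyond Tlr9KO for 8 and 2 of them. These genes were chosen against the same WT and Tlr7KO arrays, and DKO shares both slide and lack of TLR9 with Tlr9KO. That is therefore no separate check, and the share over all genes was not computed.

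**Figure D5:**
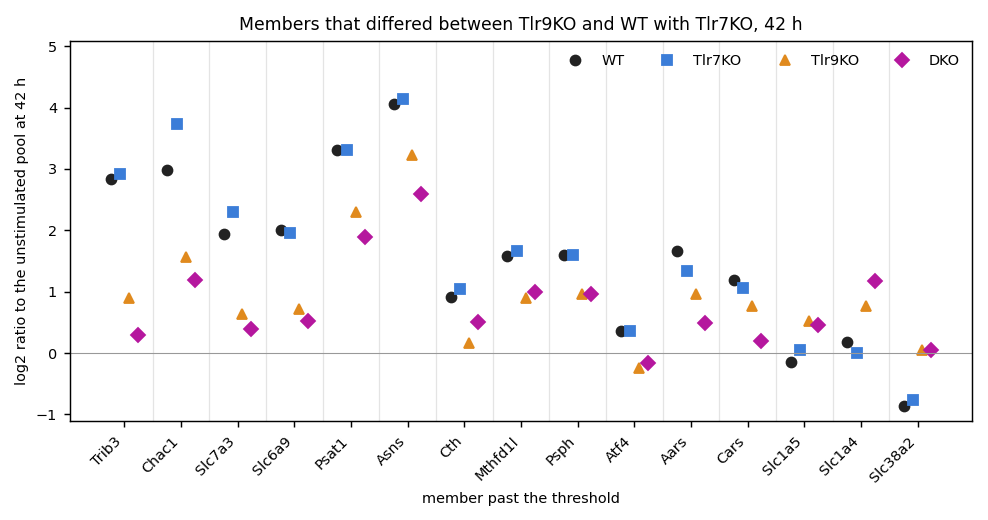
Log2 ratio to the unstimulated pool at 42 h (y axis) for the 15 genes that differed between Tlr9KO and WT with Tlr7KO (x axis), 1 point per array. Tlr9KO and DKO, which shared a slide, lie on the same side of WT and Tlr7KO for every gene shown, as for Trib3 at 0.90 and 0.30 against 2.83 and 2.92. The choice of these genes on the same arrays favours that.

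Neighbouring genes of the pathway were read for comparison in the TLR-bearing genotypes, against the shares of all genes given above for 6 h and 24 h. Of the 11 other cytosolic synthetases and scaffold genes, 9 were higher at each time and none was lower. Eef1e1 and Aimp2, scaffold proteins of the multisynthetase complex, rose by 2.23 ± 0.16 and 2.19 ± 0.10 at 6 h. The 17 mitochondrial synthetases were mixed, with 8 higher and 2 lower at 6 h and a median of 0.19. Yars2 rose by 1.66 ± 0.10 and Cars2 fell by 0.71 ± 0.12. Of 10 other folate and glycine cleavage genes, 4 were higher at 6 h, and 6 higher and 1 lower at 24 h, led by Mthfd2, the mitochondrial partner of Mthfd1l, at 3.48 ± 0.15 and 2.94 ± 0.15.

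The genes for eIF2α and for proteins that act on it were mixed, and unfolded protein response genes were mostly higher at 6 h. Of 7 genes for eIF2α, its kinases and phosphatase subunits, 2 were higher and 1 lower at 6 h: Eif2s1, eIF2α itself, rose by 1.57 ± 0.15, Ppp1r15a, which directs its dephosphorylation, rose by 0.93 ± 0.19, and the kinase gene Eif2ak3 fell by 1.12 ± 0.21. At 24 h Eif2ak2, the kinase of double-stranded RNA and an interferon-induced gene, was higher than at 0 h by 2.06 ± 0.38. Eif2s1 was higher by 1.47 ± 0.15, while Eif2ak3 was lower by 1.21 ± 0.21 and Ppp1r15a by 0.82 ± 0.19. Of 10 unfolded protein response genes, 7 were higher and 1 lower at 6 h, with the chaperones Hspa5 and Dnajb9 changing by 1.86 ± 0.10 and 1.78 ± 0.12 and Herpud1 by -0.45 ± 0.13.

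Genes listed under amino acid sensing upstream of mTORC1 were mostly lower. Of these 10 genes, not all of which are sensors themselves, 7 were lower and 1 higher at 6 h, with a median of -0.82. Ddit4 and Sesn1, both of which hold back mTORC1, fell by 2.93 ± 0.34 and 2.22 ± 0.12. Of 10 other amino acid transporters tested, 3 were higher and 3 lower at 6 h, with Slc7a6 changing by 2.02 ± 0.24 and Slc43a2 by -2.50 ± 0.23. Of 9 glutamine and transamination genes, 5 were higher and 1 lower, with the alanine aminotransferase Gpt2 up by 3.00 ± 0.31. Of 5 glutathione genes, 4 were higher and 1 lower, with Gclc, which starts glutathione synthesis, up by 1.16 ± 0.13.

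Different probes of a gene did not always agree. The 42 genes had 57 probes, and 14 genes had several, of which the brightest was used. The less bright Atf4 probe read -0.27, -0.21 and -0.09 at 0 h, 1.26, 1.08 and 0.83 at 6 h and 0.72, 0.57 and 0.31 at 24 h in WT, Tlr7KO and Tlr9KO. By that probe Atf4 was still a mean of 0.72 above 0 h at 24 h, compared with 0.11 by the brightest. For Slc7a5, whose brightest probe lies at chr8:124405136-124405195 and the other at chr8:124430996-124431055 (build mm9, as the files give it), the mean change at 6 h was 3.63 and 0.48. For Pycr1 it was 3.19 and 0.41, and for Shmt1 3.41 and 1.88. The second Aars probe was not well above background on any array. For Bcat1, Cth, Mthfd1l, Phgdh, Psat1, Psph, Slc1a5, Slc6a9 and Wars the probes moved in 1 direction at 6 h, though not always by the same size.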

How the data were processed

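Per the file headers, each array was scanned and extracted with Agilent Feature Extraction 10.1.1.1, and the deposited files hold foreground and background intensity for both colours, unnormalized, with processed signals beside them. The authors' deposited value table holds the log10 ratio of the processed signals, matching the scanner files within 0.001 for every value compared, with column medians from -0.145 to 0.022. Log2 ratios used here were computed from the deposited intensities: normexp background correction (offset 50), loess within each array, spots with outlier flags left out and repeats of a probe averaged.

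A gene's brightest probe stood for it. Of 55681 probes, 27235 were matched to a gene by accession, 3581 by symbol and 569 by an older symbol. These kept the file's gene name. The other 24296 matched no symbol and were left out. A gene entered a fit if 3 or more of its arrays showed it well above background in Cy5 or Cy3.

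Fits used limma 3.58.1 in R 4.3.3, two-sided, Benjamini-Hochberg adjusted over all genes tested, with a threshold of 0.05. There were 16 comparisons. Time comparisons used 12 arrays of WT, Tlr7KO and Tlr9KO with genotype as a term. Tlr7KO against WT and DKO against Tlr9KO used the 12 arrays after 0 h, with a term for time. The other comparisons used all 16 arrays, with the spread taken between genotypes treated as alike. The fits were tested on simulated data first. Array number limits the precision.

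Every one of the 42 genes is accounted for by role. From each further list counts are given, with at most the 2 largest rises and 2 largest falls by name. The genes, lists and tests were chosen with earlier results of these data known. Alternatives were median centring, no background subtraction, processed signals, no filter, the mean of all probes, slide as a term, all 4 genotypes, no genotype term and leaving out each genotype or time.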

Additional observations from a re-analysis of the deposited data

How the results depend on the processing

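Among the 41, the counts of genes called for 6, 24 and 42 h against 0 h stayed within 1.5 times under every setting run. So did the count for 24 h against 6 h, and these settings included leaving out each genotype. The count for Tlr9KO at 42 h also stayed within 1.5 times, but no genotype was left out for it. For 42 h against 24 h, where 7 passed, 21 passed with median centring, 1 with no background subtraction, 0 on processed signals and 0 with all 4 genotypes, and leaving out a genotype gave 0 to 18. For DKO at 24 h, where 11 passed, 0 passed with median centring, 5 with no background subtraction and 0 on processed signals, and leaving out a genotype gave 0 to 27. Leaving out a genotype gave 0 to 4 for DKO at 6 h, 0 to 20 for DKO at 42 h, and 0 to 1, 0 to 21 and 0 to 13 for its response to 6, 24 and 42 h. With slide as a term the response to 24 h gave 2. For Tlr9KO at 24 h, where 1 passed, 34 passed with median centring, 0 on processed signals and 2 with the mean of all probes. At 6 h 3 passed and 0 did on processed signals, where the Slc7a3 difference turned from -1.38 to 0.056 (limma adjusted p = 0.984). The cause was not tested. For Tlr9KO against WT and Tlr7KO, leaving out WT or Tlr7KO leaves no residual degrees of freedom, and neither was run. The time comparisons pair arrays by genotype as a term, and without it 37, 33, 29, 30 and 7 passed for 6, 24 and 42 h against 0 h, 24 h against 6 h and 42 h against 24 h. The labels give no replicate numbers to pair by. Leaving out Tlr9KO left DKO alone on slide 2, so the DKO counts of that setting hold no spread between slides. Genes near background, such as Nupr1, are limited by signal.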
